A study of Homo sapiens with 6 samples.

Results

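The CDK inhibitor genes are the 8 genes that encode the protein brakes on the cyclin-dependent kinases (CDKs), namely *CDKN1A*, *CDKN1B*, *CDKN1C*, *CDKN2A*, *CDKN2B*, *CDKN2C*, *CDKN2D* and *CDKN3*. They were taken by symbol from the 22807 genes of the expression table, and each symbol matched 1 gene. CDKs drive cells from one phase of the cell cycle to the next when a cyclin binds them. The CIP/KIP proteins p21 (*CDKN1A*), p27 (*CDKN1B*) and p57 (*CDKN1C*) bind cyclin-CDK complexes, best known for blocking CDK2. The INK4 proteins encoded by *CDKN2A*, *CDKN2B*, *CDKN2C* and *CDKN2D* bind CDK4 and CDK6 and keep D-type cyclins from activating them, so that the retinoblastoma protein stays unphosphorylated and holds back the E2F factors. *CDKN3* encodes a phosphatase that removes the activating phosphate from CDK2, and its mRNA is known to be highest in dividing cells. In HER2+ breast cancer, receptor signaling through ERK and AKT is known to raise cyclin D1 and to keep p27 low.

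MDA-MB-453 is an established line of HER2+ breast cancer cells, grown in RPMI with serum, and its RNA was sequenced in 6 libraries. In 3 libraries (genotype label DUSP6 KD) *DUSP6*, which encodes a phosphatase that inactivates ERK, was knocked down with siRNA, and the other 3 (genotype label WT) received scrambled siRNA. They are called knockdowns and controls here, numbered 1 to 3 by the replicate number of their labels. The study used 3 different siRNAs per group, and the sources used here do not assign them to single libraries. The methods say of all data of the study that they came from independent experiments, while the labels of these libraries name none. The p-values measure the spread between these libraries, which may include that between siRNAs.

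The deposited values were normalized reads on a linear scale, and whole reads could be recovered from them. The totals ranged from 56542154 to 85729785 reads with scrambled siRNA and from 45546981 to 75642792 reads with *DUSP6* siRNA. The normalized value of *DUSP6* itself was 144 ± 55.7 in the controls and fell to 33.0 ± 7.68 in the knockdowns (SD, n = 3 each), which is -2.05 on the log2 scale (adjusted p = 3.09e-04 by limma), and control 1 had the highest value. The HER2 gene *ERBB2* and the luminal and epithelial markers *KRT8*, *KRT18* and *EPCAM* were present in every library. *ERBB2*, *KRT18* and *KRT8* were called lower, *KRT8* narrowly (log2 fold change -0.42, adjusted p = 0.0448 by limma). The *KRT8* call was lost under quantile normalization and with reads divided by library totals alone, among other alternatives. *PTPRC* of leukocytes, *PECAM1* of endothelium and *KRT5* of basal cells, in contrast, did not exceed a value of 0.920. *COL1A1*, a fibroblast gene, was not low. It rose from 92.2 ± 12.2 to 173 ± 16.7 (SD, n = 3 each), and its part in the results was not tested.

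Of the 8 CDK inhibitor genes, 7 averaged 1 or more across the libraries and were tested with limma on log2(value + 1) together with all 12862 genes that did. A gene was called at a Benjamini-Hochberg adjusted p under 0.05. *CDKN1A* was the 1 member called higher after *DUSP6* siRNA, where 19.7% of all tested genes were. *CDKN2D* and *CDKN3* were called lower, where 24.7% of all genes were. The other 4 tested members were not called. The values of these 3 called members did not overlap between the groups, which 57.8% of all genes shared, so the number of members that moved did not stand out from the table as a whole. The median log2 fold change of the 7 members was -0.25 beside -0.01 for all genes. Their median absolute log2 fold change was 0.42 beside 0.29.

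The lower calls depended on the scaling. The deposited values held scaling factors of 0.881 to 0.968 for the scrambled siRNA libraries and of 1.08 to 1.09 for the *DUSP6* siRNA libraries, so the factors themselves differed between the groups. With reads divided by the library total alone, an alternative added after the data were seen, the median log2 fold change of all genes moved from -0.01 to 0.20 and 4777 genes were called higher and 1800 lower, in place of 2540 and 3179. *CDKN1A*, *CDKN1B* and *CDKN2B* were then called higher and no member was called lower by limma, with 2 lower at an unadjusted p under 0.05. edgeR on the recovered reads with the factors called 1 member higher and 3 lower. Relative to the median of all genes each member kept nearly the same position under both scalings, for example 0.84 and 0.86 for *CDKN1A* and -0.57 and -0.56 for *CDKN3*. All changes below are therefore changes relative to the bulk of the genes, and in bulk libraries fewer cells of a kind and less RNA per cell cannot be told apart.

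**Figure D1:**
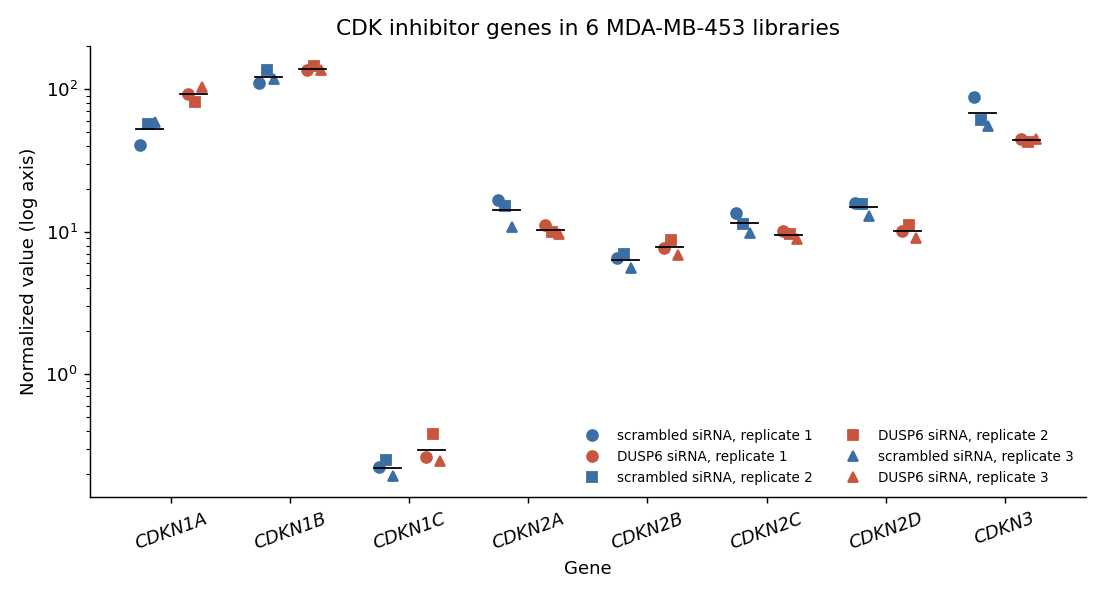
Normalized value (log axis) of the 8 CDK inhibitor genes in each of the 3 scrambled siRNA (blue) and 3 DUSP6 siRNA (red) libraries, with marker shapes for replicates and black lines for group means. The groups stand apart for CDKN1A, CDKN2D and CDKN3, and CDKN1C lies below 1 in every library.

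Among the CIP/KIP genes, *CDKN1A* (Entrez gene 1026, chromosome 6 of hg38, 36676463 to 36687332, plus strand) encodes p21, which is known to arrest the cycle after DNA damage. Its values were 40.8, 56.7 and 58.9 in controls 1 to 3 and 92.6, 81.8 and 104 in knockdowns 1 to 3. Every knockdown library lay above every control, and control 1 was the lowest of all. The mean rose from 52.1 ± 9.84 in the controls to 92.7 ± 11.0 in the knockdowns (SD, n = 3 each), a ratio of 1.78 and a log2 fold change of 0.83 (SE 0.15, adjusted p = 0.00229 by limma). A two-sided exact permutation test gave p = 0.1, which no comparison of 3 libraries with 3 can go below. Of all tested genes, 95.9% had a lower fold change than *CDKN1A*, and 10.6% had a larger change in either direction. *CDKN1A* stayed higher and called when each library was left out in turn and under every other alternative tried, with log2 fold changes from 0.67 to 1.06. Between 2746 and 6717 reads per library stood behind these values.

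Because *CDKN1A* was the member that rose, its promoter is shown. RefSeq (GRCh38.p14) held promoter windows for 7 of the 8 members, all but *CDKN1C*, and the 250 bases before each start were searched on both strands for 5 motifs. The printed stretch of 150 bases, chr6:36678560-36678709 on the plus strand, is the longest part of its window without an annotated exon, and the capitals mark the GC box GGGCGG, the sequence that SP1 is known to bind.

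CDKN1A promoter: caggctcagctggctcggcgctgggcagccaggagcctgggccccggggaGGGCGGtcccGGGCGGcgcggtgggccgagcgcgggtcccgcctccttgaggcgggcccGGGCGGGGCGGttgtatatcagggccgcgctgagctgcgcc

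It holds 4 matches to the GC box, and the last pair of them overlap. A GC box stands in 42.6% of the 35116 RefSeq windows of this length, so a match is common. Among the other members, a window of *CDKN2C* held 5 matches. Of the members called lower, *CDKN2D* had 2 in its window and *CDKN3* 0. The window had no match to the interferon-stimulated response element (ISRE, searched as GAAA, any 2 bases and GAAA, and found in 3.02% of windows) or to the gamma-activated site GAS (TTCNNNGAA, 6.57%). That says only that these letters are absent from this window.

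*CDKN1B* (Entrez gene 1027, chromosome 12, 12717368 to 12722369, plus strand) encodes p27, which is known to hold quiescent cells out of the cycle. Its values were 110, 136 and 117 in controls 1 to 3 and 136, 144 and 136 in knockdowns 1 to 3. The groups overlapped, since control 2 reached the level of the lower knockdown libraries. The mean was 121 ± 13.5 and 139 ± 4.81 (SD, n = 3 each), and the log2 fold change of 0.20 (95% interval -0.03 to 0.42, adjusted p = 0.137 by limma) did not pass the test. Without control 2 it was 0.28 and was called (adjusted p = 0.0287 by limma). Quantile normalization and scaling by library totals alone also called it, at 0.34 and 0.42.

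*CDKN1C* (Entrez gene 1028, chromosome 11, 2883218 to 2885775, minus strand) encodes p57 and is known to be imprinted. It was close to absent, with a normalized value of 0.223, 0.249 and 0.193 in the scrambled siRNA libraries and 0.263, 0.379 and 0.247 in the *DUSP6* siRNA libraries. These values rested on 13 to 31 reads per library. The groups overlapped, and *CDKN1C* fell under the filter. When edgeR tested the recovered reads without a filter, its log2 fold change was 0.45 (adjusted p = 0.397) and it was not called. At these low counts that does not show that the groups were equal.

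Among the INK4 genes, *CDKN2A* (Entrez gene 1029, chromosome 9, 21967752 to 21995324, minus strand) encodes p16INK4a and, in another reading frame, the MDM2 inhibitor p14ARF. The gene-level values cannot separate these products. The values were 16.7, 15.3 and 10.7 in controls 1 to 3 and 11.1, 9.95 and 9.66 in knockdowns 1 to 3. The lowest control lay among the knockdown libraries. The mean was 14.2 ± 3.12 and 10.2 ± 0.774 (SD, n = 3 each), with a log2 fold change of -0.42 (SE 0.16, adjusted p = 0.0574 by limma) that missed the threshold. The call turned on control 3, without which the fold change was -0.60 (adjusted p = 0.00274 by limma), and edgeR on the recovered reads called it at -0.47 (adjusted p = 0.0475). With library totals alone it was -0.21 (adjusted p = 0.257 by limma). Exons of other genes, chiefly the antisense *CDKN2B-AS1*, cover 15.3% of the annotated exon sequence of *CDKN2A* but 0% of its canonical transcript. The counting was run with defaults that do not use strand, so the value of *CDKN2A* is uncertain.

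*CDKN2B* (Entrez gene 1030, chromosome 9, 22002903 to 22009313, minus strand) is the neighbor of *CDKN2A* and encodes p15INK4b, known as a target of TGF-beta. Its values were 6.56, 6.94 and 5.54 in controls 1 to 3 and 7.70, 8.78 and 6.89 in knockdowns 1 to 3. The groups overlapped narrowly, between the lowest knockdown library and the highest control. The log2 fold change was 0.26 (95% interval -0.03 to 0.55, adjusted p = 0.129 by limma). Among the alternatives it was called only with library totals alone, at 0.46 (adjusted p = 0.0148 by limma).

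The neighboring pair thus had fold changes of opposite sign, and neither passed the test. The ratio of *CDKN2B* to *CDKN2A*, which no scaling changes, was 0.454 ± 0.0621 in the controls and 0.763 ± 0.104 in the knockdowns (SD, n = 3 each). It was at most 0.516 in the controls and at least 0.693 in the knockdown libraries. This ratio was chosen after the values were seen, so it is given as a description. Of the other genes around them, *KLHL9*, a ubiquitin ligase adaptor, rose (log2 fold change 0.70, adjusted p = 0.0103 by limma), a call lost without knockdown 2 (0.63, adjusted p = 0.0548). *MTAP*, which encodes an enzyme of methionine salvage, had a log2 fold change of 0.21 and *CDKN2B-AS1* one of -0.11. Neither was called. For *MTAP* and *KLHL9* control 1 stood below the other controls, with 19.2 beside 32.0 and 32.1 for *MTAP*, which was not so for *CDKN2A* or *CDKN2B*. *DMRTA1* was at or near 0 in every library.

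*CDKN2C* (Entrez gene 1031, chromosome 1, 50960745 to 50974634, plus strand) encodes p18INK4c. Its values were 13.6, 11.3 and 9.87 in controls 1 to 3 and 10.1, 9.65 and 8.90 in knockdowns 1 to 3. The groups overlapped through control 3. The log2 fold change of -0.25 (95% interval -0.54 to 0.05, adjusted p = 0.154 by limma) did not pass the test, but without control 3 it was -0.35 (adjusted p = 0.0375 by limma), and without control 1 it was -0.13. Exons of other genes, chiefly an antisense one, cover 20.4% of its annotated exon sequence but 0% of its canonical transcript, so its value is uncertain.

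*CDKN2D* (Entrez gene 1032, chromosome 19, 10566460 to 10568979, minus strand) encodes p19INK4d, whose mRNA is known to vary over the cell cycle. Its values were 15.9, 15.8 and 13.0 in controls 1 to 3 and 10.1, 11.2 and 9.02 in knockdowns 1 to 3. Every knockdown library lay below every control. The mean fell from 14.9 ± 1.68 in the controls to 10.1 ± 1.09 in the knockdowns (SD, n = 3 each), with a log2 fold change of -0.51 (SE 0.13, adjusted p = 0.00992 by limma, exact permutation p = 0.1). The call was lost without knockdown 3, at -0.44 (adjusted p = 0.0555 by limma), and with library totals alone, at -0.30 (adjusted p = 0.0627 by limma).

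*CDKN3* (Entrez gene 1033, chromosome 14, 54397007 to 54420218, plus strand), the phosphatase gene, had the lowest fold change of the members. Its values were 87.8, 60.8 and 54.7 in controls 1 to 3 and 44.4, 42.5 and 44.5 in knockdowns 1 to 3. The knockdown libraries lay close together below all controls, and control 1, which also had the highest *DUSP6*, stood well above the other controls. The mean fell from 67.8 ± 17.6 in the controls to 43.8 ± 1.11 in the knockdowns (SD, n = 3 each), with a log2 fold change of -0.59 (SE 0.16, adjusted p = 0.0153 by limma, exact permutation p = 0.1). Without control 1 the fold change was -0.39 and stayed called (adjusted p = 0.0142 by limma). Without knockdown 2 it was -0.57 and was no longer called (adjusted p = 0.0635 by limma), and the same held with library totals alone, at -0.36 (adjusted p = 0.0563 by limma).

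The promoters of the members that fell are shown for comparison with that of *CDKN1A*. The *CDKN3* stretch is chr14:54396757-54396848 on the plus strand, and its capitals mark the cell cycle genes homology region (CHR, TTTGAA on the other strand), the element through which the DREAM and MuvB complexes are known to act on genes of dividing cells. The *CDKN2D* stretch is chr19:10569060-10569229 on the minus strand, and its capitals mark a GC box. Both are the exon-free parts of the RefSeq windows.

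CDKN3 promoter: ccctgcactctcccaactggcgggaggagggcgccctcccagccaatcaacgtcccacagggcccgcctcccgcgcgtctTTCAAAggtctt

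CDKN2D promoter: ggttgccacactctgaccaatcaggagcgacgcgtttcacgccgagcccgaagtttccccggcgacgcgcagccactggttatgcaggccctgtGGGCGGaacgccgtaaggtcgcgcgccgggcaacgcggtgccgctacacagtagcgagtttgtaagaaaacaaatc

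A CHR stands in 13.3% of all windows and, among the members, only in that of *CDKN3*, which also held the 1 GAS match among the member windows. No member window held an ISRE or an E2F site (searched as TTTCCCGC, TTTCGCGC, TTTGCCGC or TTTGGCGC and found in 2.79% of windows).

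**Figure D2:**
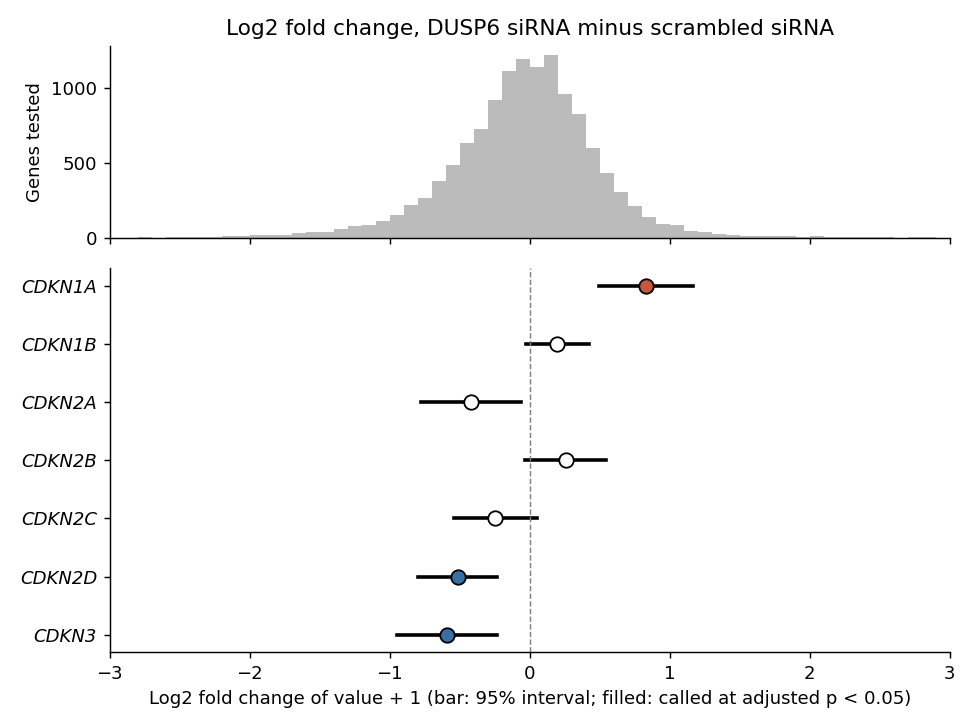
Log2 fold change of value + 1, DUSP6 siRNA minus scrambled siRNA. The upper panel is a histogram of the tested genes with values between -3 and 3, and the lower panel shows the 7 tested CDK inhibitor genes with 95% intervals, filled where called. CDKN1A at 0.83 lies in the right flank of the distribution, and CDKN3 at -0.59 and CDKN2D at -0.51 lie on the left side.

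Levels were compared between members per kilobase, first over all annotated exons of a gene. With scrambled siRNA *CDKN3* was highest at 37.0 ± 9.63 (SD, n = 3), followed by *CDKN1A* at 17.4, *CDKN1B* at 13.1, *CDKN2D* at 9.89, *CDKN2C* at 3.84, *CDKN2A* at 3.67, *CDKN2B* at 1.59 and *CDKN1C* at 0.0894. In this order the libraries of *CDKN1A* and *CDKN1B* overlapped, as did those of *CDKN2C* and *CDKN2A*. With *DUSP6* siRNA *CDKN1A* stood first at 31.0 ± 3.66 (SD, n = 3), above *CDKN3* at 24.0 ± 0.607 (SD, n = 3), with no overlap. The rest kept their order.

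The order depended on the length. For *CDKN1B* the annotated exons add up to 9255 bases but the canonical transcript has 2411. Per kilobase of canonical transcript, a scale added after the data were seen, *CDKN1B* was at 50.3 with scrambled siRNA and above *CDKN1A* at 24.6. *CDKN1B* then led all members with *DUSP6* siRNA at 57.5, before *CDKN3* at 52.1 and *CDKN1A* at 43.8. The INK4 genes also changed places, with *CDKN2A* at 14.6, *CDKN2C* at 11.7 and *CDKN2D* at 10.4 in the controls, where neighbors in this order overlapped.

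The sum of the 8 values per kilobase of exon was 86.6 ± 8.18 in the controls and 84.5 ± 2.61 in the knockdowns (SD, n = 3 each), and the groups overlapped. Its make-up differed. The CIP/KIP genes held 35.8% ± 7.63 of the sum in the controls and 54.5% ± 2.16 in the knockdowns (SD, n = 3 each). The INK4 genes held 21.9% ± 1.26 and 17.2% ± 1.88 (SD, n = 3 each), and *CDKN3* held 42.4% ± 7.20 and 28.4% ± 0.332 (SD, n = 3 each). Per kilobase of canonical transcript these shares were 39.2% and 55.5% for CIP/KIP, 19.7% and 16.0% for INK4 and 41.2% and 28.5% for *CDKN3*. The shares follow from the values above and are not a further test.

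**Figure D3:**
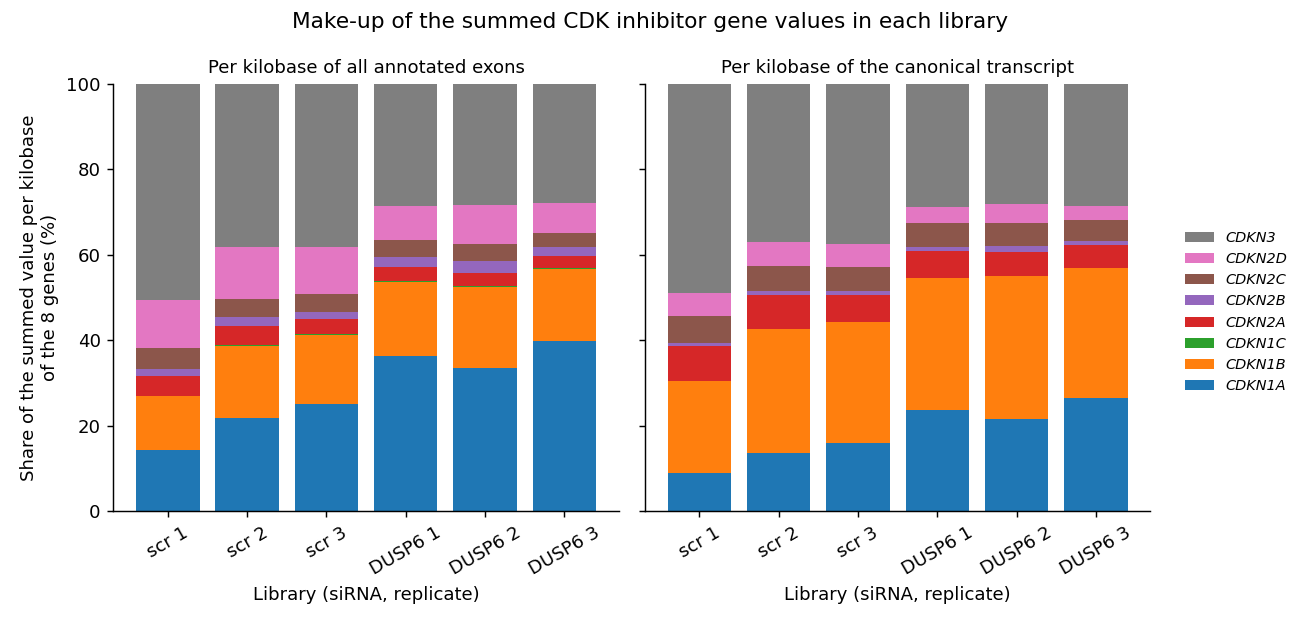
Share (%) of each CDK inhibitor gene in the summed value per kilobase of the 8 genes, in each library, with lengths from all annotated exons (left) or the canonical transcript (right). CDKN1A takes the larger share and CDKN3 the smaller in each DUSP6 siRNA library (marked DUSP6 1 to 3) than in each scrambled siRNA library (scr 1 to 3).

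The partners of the inhibitors were lower or not called. Of 11 tested CDK and cyclin genes, 0 were called higher and 6 lower by limma, beside 19.7% and 24.7% of all tested genes. At an unadjusted p under 0.05 and by edgeR 0 were also higher. The median log2 fold change of the 11 was -0.51 beside -0.01 for all genes. *CCNB2*, a mitotic cyclin, fell by 1.07 on the log2 scale, *CDK2* fell by 0.73 and *CCND1*, which encodes cyclin D1, fell by 0.61. With library totals alone 1 was called higher and 3 lower, beside 4777 and 1800 of the 12862 tested genes. In addition, 1 was called higher without a filter or without control 1 or 3. *CDK2* ran from 67.2 to 75.8 in the controls and from 40.9 to 45.1 after knockdown. The ratio of *CDKN1A* to *CDK2*, in normalized values and not per length, was therefore 0.725 ± 0.150 in the controls and 2.15 ± 0.223 in the knockdowns (SD, n = 3 each). The ratio of *CDKN1B* to *CDK2* was 1.69 ± 0.292 and 3.23 ± 0.266 (SD, n = 3 each). *CDK4* and *CDK6*, the targets of the INK4 proteins, were not called (log2 fold changes 0.17 and 0.35). For *CDK4* control 3 at 130 stood above the other controls of 93.3 and 82.0. For *CDK6* control 1 at 21.3 stood above the others of 13.9 and 13.3. These ratios, too, were chosen after the values were seen.

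Downstream, 1 of 9 tested genes of the RB family and the E2F factors was called higher and 4 lower. Over all tested genes 19.7% were higher and 24.7% lower, and the median log2 fold change of the 9 was -0.26. *E2F2* and *E2F1*, activators of S phase genes, fell by 1.34 and 1.32 on the log2 scale, while *E2F5*, a repressor, rose by 0.60. The *E2F5* call was lost without a filter and without any one of controls 1 and 2 and knockdowns 2 and 3 (adjusted p from 0.0649 to 0.112 by limma). Over the list 2 were lower without knockdown 1 or 3, and 2 were higher and 2 lower without the scaling factors. Of 12 proliferation genes set beside *CDKN3*, 11 were lower and 0 higher, with a median of -0.61, beside -0.59 for *CDKN3* itself (limma, 0 also higher at an unadjusted p under 0.05 and by edgeR). Those with the largest falls were *MYBL2* at -1.21, *MKI67* at -1.17 and *FOXM1* at -1.13. Without the scaling factors 8 of the 12 were lower.

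The CIP/KIP proteins are also controlled by degradation. The list for this held genes of the ubiquitin ligases that degrade p21, p27 or p57, and *PCNA*, which is not a ligase gene. Of its 13 tested genes, 1 was higher and 5 lower, *PCNA* among the latter. The shares over all tested genes were 19.7% and 24.7%, and the median log2 fold change of the 13 was -0.24. *RBX1*, the RING subunit of cullin ligases, rose by 0.83. *DTL*, the adaptor that recognizes p21, fell by 0.62, and *PCNA*, on which it does so, fell by 0.57. These 3 genes were called in the same direction under each scaling tried, although over the list 3 were higher and 3 lower without the scaling factors. The abundance of the inhibitor proteins was not measured in these libraries.

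Of 12 transcription factors known to act on *CDKN1A*, 4 were higher and 3 lower, beside 19.7% and 24.7% of all tested genes. Their median log2 fold change was -0.04. *IRF1* rose by 2.24 on the log2 scale and belongs to the interferon response, of which 8 of 8 listed genes were higher, with a median of 4.18. Some of these 8 averaged under 1 in the controls and passed the filter only through the knockdowns, so their calls carry little weight. With the filter raised to 10, 5 were called higher. *IFIT1* rose by 7.19 and *OASL* by 6.37. *TP63* fell by 1.95. *SP1* and *KLF4* were named after their values were seen. *SP1* fell by 0.42 (adjusted p = 0.00592 by limma), while *KLF4* rose by 1.19 (adjusted p = 1.46e-04 by limma). Over the list of factors 4 were higher and 2 lower without the scaling factors. The part of the interferon response in the value of *CDKN1A* was not tested.

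*CDKN1B* is known as a target of the FOXO factors. *FOXO4* fell by 1.12 and *FOXO3* by 0.47, and *FOXO1* was not called at 0.18, though it was called higher without control 2, at 0.38. Of 10 tested Polycomb and other factors known to act on the INK4 genes, 3 were higher and 1 lower. Their median log2 fold change was 0.06, and the shares over all tested genes were 19.7% and 24.7%. *ETS2*, an activator of *CDKN2A*, rose by 0.94 and *ID1*, which inhibits such activators, by 0.87. The Polycomb methyltransferase gene *EZH2* fell by 0.41, a call lost without the scaling factors and without knockdown 2 (-0.36, adjusted p = 0.0577 by limma). *BMI1* and *ETS1* had a mean value below 1. Around *CDKN1C*, *PHLDA2*, an imprinted neighbor, fell by 1.30 and *NAP1L4* by 0.31, the latter not called under quantile normalization, without the scaling factors or without knockdown 1 or 3. *SLC22A18* and *CARS1* were not called, each at 0.11, but were called higher without control 3, at 0.39 and 0.22, and *KCNQ1* and *KCNQ1OT1* fell under the filter.

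**Figure D4:**
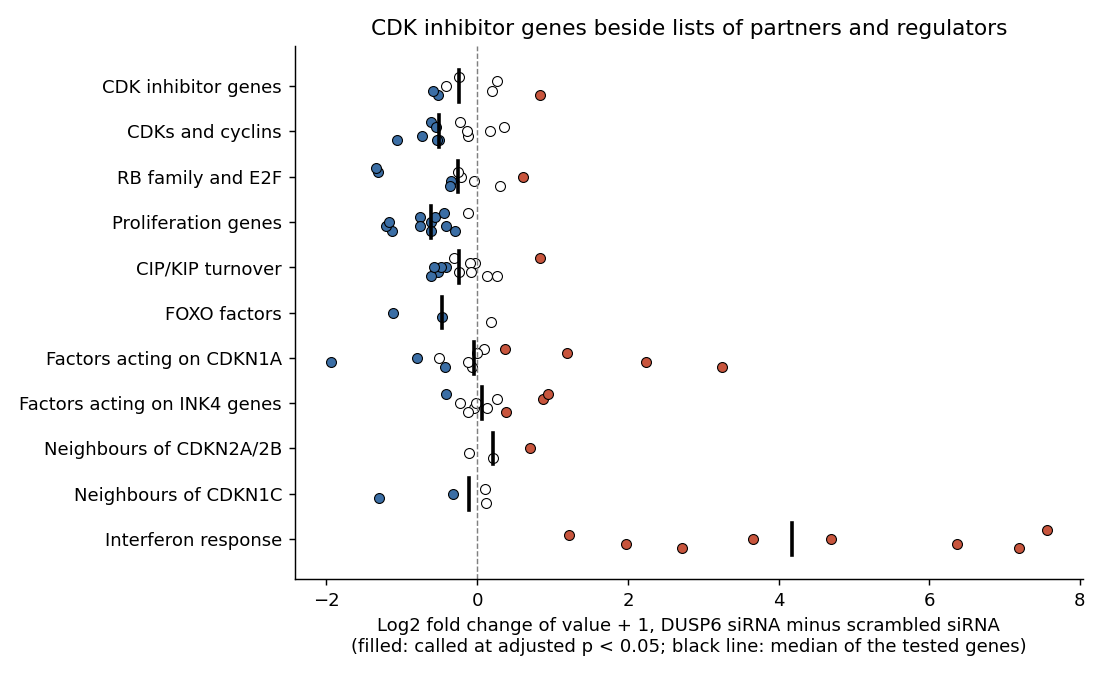
Log2 fold change of value + 1, DUSP6 siRNA minus scrambled siRNA, of each tested gene in the CDK inhibitor set and in 10 lists of partners, regulators and neighbors, filled where called, with a black line at each list's median. The CDKs, cyclins and proliferation genes lie mostly left of 0, the 8 interferon response genes lie right of 1, and the CDK inhibitor genes lie on both sides of 0.

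For each tested member, the genes of most similar pattern were found by the root mean square distance over the 6 libraries between log2 values centered on each gene's own mean. *TMEM140* (0.0738) and *C4B* (0.0774) were closest to *CDKN1A*. *C4B* has a nearly identical copy in the genome, so its value is uncertain. *SNAPC3* (0.0376) and *STRN* (0.0499) were closest to *CDKN2D*, and *LYRM4-AS1* (0.0278) and *CISD1* (0.0385) to *CDKN3*. For members that were not called, the nearest were *IGHMBP2* (0.0141) for *CDKN1B*, *H3C8* (0.0366) for *CDKN2A*, *RAB40B* (0.0337) for *CDKN2B* and *UROS* (0.0304) for *CDKN2C*. *CDKN1A* thus had the most distant nearest neighbor among the 7 members. This distance grows with the size of a gene's changes, and *CDKN1A* had the largest fold change of the members. Its correlation with *TMEM140* was 0.990, beside 0.984 for *CDKN2B* with *RAB40B* and 0.997 for *CDKN3* with *LYRM4-AS1*.

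**Figure D5:**
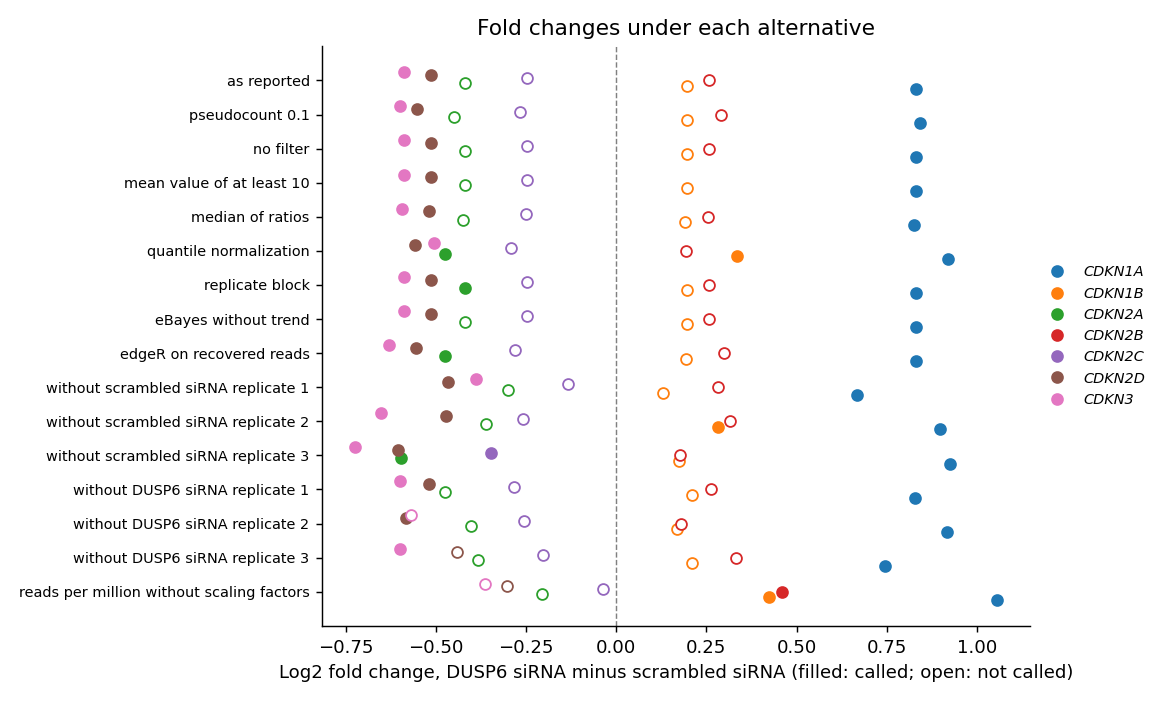
Log2 fold change of the 7 tested CDK inhibitor genes as reported and under each alternative processing, with filled points where the gene was called and open points where it was not. CDKN1A is filled in every row, and scaling by library totals alone (bottom row) moves all 7 genes to the right.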

How the data were processed

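The authors prepared stranded mRNA libraries, aligned the reads to hg38 with Rsubread and assigned them to RefSeq gene models with default settings. They deposited a linear normalized signal for each gene in each library. Dividing a column by its smallest step gave whole reads (100% of values within 0.1 read), and the steps held the factors of edgeR's TMM method. One read corresponded to a value between 0.0121 and 0.0202, and intervals cover the spread between libraries.

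Values were taken as log2(value + 1), which understates the fold changes of low genes. limma 3.58.1 in R 4.3.3 (lmFit, eBayes with a trend, two-sided, Benjamini-Hochberg) was run on the 12862 genes averaging 1 or more. edgeR 4.0.16 was run on the recovered reads as an alternative. Both were tested on simulated data. The members and the gene lists were chosen with earlier results of these data known. Named were all members, up to 3 called genes per list with the largest change, every gene of lists of 6 or fewer, and the 2 genes nearest to each tested member. *COL1A1* and other markers were checks of identity. *CDK4*, *CDK6*, *KLF4* and *SP1* were named after their values were seen. Some genes and 1 list are not reported here. Exon lengths came from GENCODE, positions and promoters from RefSeq. Genes sharing over 5% of exon sequence with others were called uncertain. The alternatives were a pseudocount of 0.1, other filters and scalings, a replicate block, eBayes without a trend, edgeR and leaving out each library.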

Additional observations from a re-analysis of the deposited data

How the results depend on the processing

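*CDKN1A* was higher and called under all 15 alternatives, and the direction of each tested member was the same in all of them. Leaving out each library gave log2 fold changes of 0.67 to 0.93 for *CDKN1A*, 0.13 to 0.28 for *CDKN1B*, -0.60 to -0.30 for *CDKN2A*, 0.18 to 0.33 for *CDKN2B*, -0.35 to -0.13 for *CDKN2C*, -0.61 to -0.44 for *CDKN2D*, -0.73 to -0.39 for *CDKN3* and -2.22 to -1.76 for *DUSP6*. The number of members called ranged from 1 to 2 higher and from 1 to 4 lower, with 4 lower without scrambled siRNA replicate 3 and 1 lower without *DUSP6* siRNA replicate 2 or 3. Over all genes these fits called 1574 to 3183 higher, the fewest without *DUSP6* siRNA replicate 2, and 2306 to 3581 lower. With the filter raised to 10, 1639 genes passed as higher, and *CDKN2B* was not tested.

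Quantile normalization called 2 members higher, with *CDKN1B* at 0.34 (adjusted p = 0.0243 by limma), and *CDKN2A* at -0.47 (adjusted p = 0.0381 by limma). edgeR on the recovered reads also called *CDKN2A*, at -0.47. With reads divided by library totals alone, added after the data were seen, 3 members were higher and 0 lower, with *CDKN1B* at 0.42, *CDKN2B* at 0.46, *CDKN2D* at -0.30 and *CDKN3* at -0.36. Over all genes 4777 were then higher and 1800 lower, and under quantile normalization 2963 and 2876.

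The replicate numbers did not pair the libraries. The deviations of same-numbered libraries from their group means correlated at 0.005, 0.0868 and -0.0764 over genes, and not every library correlated best with its own number. With the replicate block 2495 genes were higher and 3096 lower, and *CDKN2A* was called at -0.42 (adjusted p = 0.0319 by limma). It changed no other call among the members. For *CDKN1C*, 13 to 31 reads per library limited what could be detected.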
